A study of Arabidopsis thaliana with 4 samples.

Results

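The genes described here are the 5 ethylene receptor genes of Arabidopsis thaliana (ETR1, ERS1, ETR2, ERS2 and EIN4), the receptor regulator RTE1 and the kinase gene CTR1. They were found by locus identifier in the authors' gene table, and all 7 had an entry, out of 33414 loci named there. The 4 libraries came from 3-day-old etiolated (dark-grown) srt1srt2 seedlings in the Col background, mutated in a pair of sirtuin (NAD-dependent histone deacetylase) genes. After growth at 24 °C in hydrocarbon-free air, 2 libraries were made from seedlings held for 4 hours in that air and 2 from seedlings held for 4 hours in the air with 10 ppm ethylene. Every group carried both mutations, and no wild-type seedlings were analysed here, so nothing below says what the mutations did. The title of the table names only srt1, and the sample labels were followed. Whole seedlings were taken, so that fewer cells of a type and less RNA per cell cannot be told apart. The table holds 1 pooled FPKM value per condition (fragments per kilobase of transcript, scaled to library size), so no spread between libraries can be shown. Library depth is unknown.

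Ethylene receptors sit mainly in the membrane of the endoplasmic reticulum and bind ethylene through a copper ion. They signal when ethylene is absent: together with CTR1, a Raf-like protein kinase that docks on them, they keep the pathway off by phosphorylating EIN2. Ethylene binding turns the receptors and CTR1 off, EIN2 is released and the transcription factors EIN3 and EIL1 accumulate. More receptor protein therefore means that more ethylene is needed for the same response. ETR1 and ERS1 form subfamily I, which has a complete histidine kinase domain. ETR2, ERS2 and EIN4 form subfamily II, whose kinase domain has diverged, and ERS1 and ERS2 lack the receiver domain at the carboxyl end. RTE1 is a membrane protein that promotes signalling by ETR1.

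The shared ethylene-binding site is visible in the coding sequences. The stretches below, 15 codons each from the RefSeq TAIR10.1 genome and written in the coding direction, show the receptor genes around this site. Capitals mark the codons of the cysteine and the histidine that hold the copper ion.
ETR1 codons (chr1:24734875-24734919, plus strand): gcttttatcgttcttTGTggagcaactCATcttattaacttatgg
ERS1 codons (chr2:17086598-17086642, minus strand): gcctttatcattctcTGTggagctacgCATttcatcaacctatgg
ETR2 codons (chr3:8255420-8255464, plus strand): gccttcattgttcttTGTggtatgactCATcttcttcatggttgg
ERS2 codons (chr1:1156808-1156852, minus strand): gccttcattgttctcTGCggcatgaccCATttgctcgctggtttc
EIN4 codons (chr3:1237678-1237722, minus strand): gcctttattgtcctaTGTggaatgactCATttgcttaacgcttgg
The cysteine is at codon 65 of ETR1 and ERS1, 94 of ETR2, 97 of ERS2 and 87 of EIN4, and in each receptor the histidine follows 4 codons later. Within these 45 bases ERS1 differed from ETR1 at 9 positions, ETR2 and EIN4 each at 13, and ERS2 at 22. Over whole coding sequences, pairs of receptors were identical at 60.2% (ERS1 and EIN4) to 69.5% (ETR1 and ERS1) of aligned bases. No run of identical bases shared by 2 receptor transcripts was longer than 21. None of the stretches of 50 bases in the exons of the 7 genes occurred a second time on chromosomes 1 to 5. The authors' read length is not stated. The predicted proteins have 738 residues for ETR1, 773 for ETR2 and 766 for EIN4. Those of the receptors without a receiver domain are shorter, with 613 for ERS1 and 645 for ERS2.

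In ethylene, transcripts of 3 of the 5 receptor genes, of RTE1 and of CTR1 were higher than in air, and neither EIN4 nor the entry that ETR1 shares with a neighbouring gene was called. Called means a q of 0.05 or less in the authors' deposited table, from Cuffdiff with Benjamini-Hochberg adjustment. That makes 5 of 7 called higher and 0 lower, where 4.81% of the 21076 tested entries were called higher and 6.46% lower, 11.3% in all. The 7 genes were chosen with earlier results of these data known. Each of the 5 called genes was at the smallest p the test gives, 5e-05, and so at a q of 0.000878 in the authors' deposited table. Their order therefore cannot be read from p, and 1200 of the 21076 tested entries were at this same p. The deposited statistic and p are on different scales, and when the statistic is read against a normal curve the same 5 genes were called, where 2.65% of 20745 entries were called higher, 3.26% lower and 5.91% in all. The median change of the 7 entries was 1.55 on the log2(FPKM + 1) scale, against 0.0077 over all tested entries.

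ETR2 (AT3G23150, TAIR10.1 chromosome 3, 8254559 to 8257888), a receptor of subfamily II, measured 7.90 FPKM in air and 45.7 FPKM in ethylene. Among the 7 entries, where that of ETR1 is shared with a neighbouring gene, it had the lowest level in air. It also had the largest change, 5.78-fold, at place 180 among all tested entries ordered by their log2 change. The log2 ratio of ETR2 was 2.53 ± 0.25 (SE), and the 95% interval of the fold was 4.13 to 8.09. Standard errors here are the log2 ratio divided by the statistic in the authors' deposited table, the wider of the 2 scales on which that table can be read.

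ERS2 (AT1G04310, chromosome 1, 1154740 to 1157813), also of subfamily II, was at 15.4 FPKM in air and 48.3 FPKM in ethylene, 3.13-fold higher with an interval of 2.29 to 4.28. The third member of the subfamily, EIN4 (AT3G04580, chromosome 3, 1235209 to 1238630), measured 13.0 FPKM in air and 13.5 FPKM in ethylene. In air EIN4 stood between ETR2 and ERS2, and in ethylene it was the lowest of the 7 entries. Its fold was 1.04 with an interval of 0.745 to 1.45, and its q in the authors' deposited table was 0.920. The interval allows a rise of up to 1.45-fold, below the lower bound of every called member.

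ERS1 (AT2G40940, chromosome 2, 17084321 to 17087326), a subfamily I receptor, was the most abundant of the 7 entries in both conditions. Its level was 46.1 FPKM in air and 126 FPKM in ethylene. It was 2.73-fold higher in ethylene, with an interval of 2.03 to 3.66. Its fold was the smallest of the called members, yet in FPKM it gained the most, 79.7 FPKM. ERS1 overlaps the gene AT2G40935 on the other strand by 56 bases at its end, and that neighbour was at 7.94 FPKM in air and 4.97 FPKM in ethylene and was not called.

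ETR1, the other subfamily I receptor, has no entry of its own in the table. ETR1 (AT1G66340, chromosome 1, 24734162 to 24737756) shares an entry with AT1G66345, a pentatricopeptide repeat gene on the same strand that it overlaps by 38 bases. The shared entry was at 22.6 FPKM in air and 25.8 FPKM in ethylene, a fold of 1.14 with an interval of 0.797 to 1.63 and a q of 0.649 in the authors' deposited table. These values hold for both genes together, and the part of each cannot be told from the table. For ETR1 alone, neither a level nor a change can therefore be given.

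RTE1 (AT2G26070, chromosome 2, 11105605 to 11107188) measured 12.5 FPKM in air, close to EIN4, and at 48.6 FPKM in ethylene, close to ERS2. It rose 3.89-fold with an interval of 2.63 to 5.76, after ETR2 the largest fold of the 7 entries. RTE1 went from 0.553 to 1.88 FPKM for each FPKM of the shared ETR1 entry. Its homolog RTH (AT3G51040) did not follow it in level, at 27.7 FPKM in air and 26.4 FPKM in ethylene, and was not called.

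CTR1 (AT5G03730, chromosome 5, 974360 to 979849) measured 25.5 FPKM in air and 76.4 FPKM in ethylene. Its entry was second to that of ERS1 in both conditions. It was 3.00-fold higher, with an interval of 2.24 to 4.02.

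**Figure D1:**
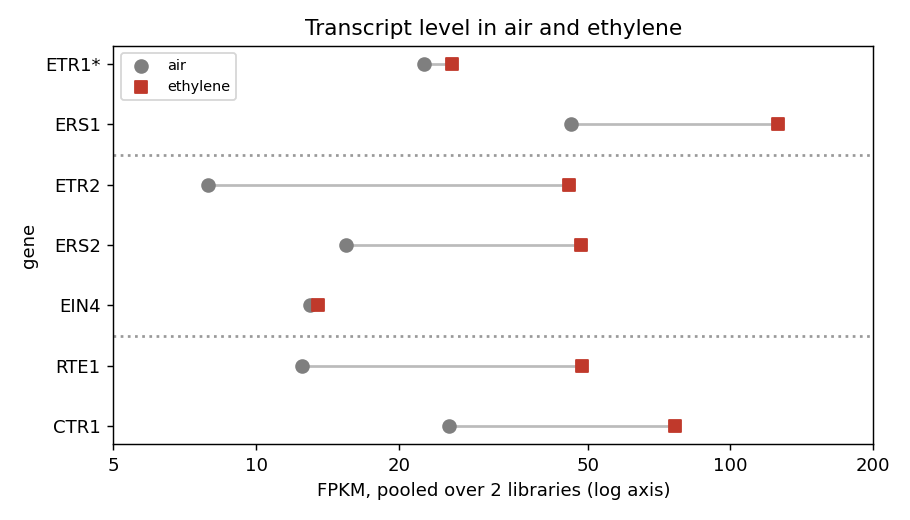
Transcript level of each gene in FPKM (log axis) in air (grey circles) and ethylene (red squares), each a single value pooled by the authors over 2 libraries; dotted lines part subfamily I, subfamily II and the other genes, and ETR1* is the entry shared with AT1G66345. ERS1 is highest in both conditions, ETR2 moves from 7.90 to 45.7 FPKM, and the points of EIN4 lie almost on each other.

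Set side by side, the changes of EIN4 and of the entry that ETR1 shares with its neighbour lay apart from those of the other 5 genes. On the log2 scale the intervals of the shared ETR1 entry (-0.33 to 0.71) and of EIN4 (-0.42 to 0.54) ended below the lowest bound among the called genes, 1.02 for ERS1. Among the called genes, the interval of ETR2 (2.05 to 3.02) lay above those of ERS1 (1.02 to 1.87) and CTR1 (1.16 to 2.01). It overlapped those of ERS2 (1.19 to 2.10) and RTE1 (1.39 to 2.53), and differences between these genes were not tested. The order of levels within a condition cannot be set against a spread, because the table gives none.

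**Figure D2:**
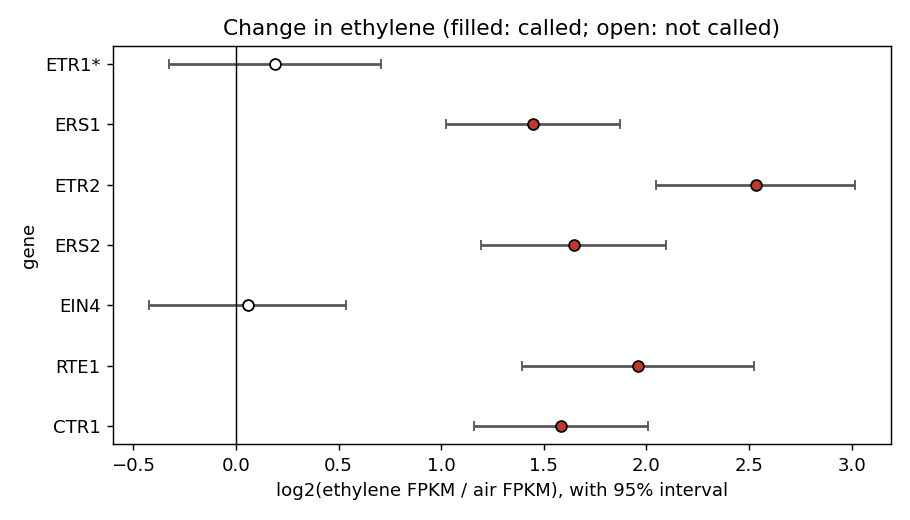
Log2 ratio of ethylene to air FPKM for each gene (points) with its 95% interval (bars), filled where the gene was called higher and open where it was not called; ETR1* is the entry shared with AT1G66345. The intervals of ETR1* and EIN4 include 0 and end below those of the 5 called genes.

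The make-up of the receptor transcript pool differed between the conditions. FPKM is per length, so levels of different genes can be summed, although transcripts are not protein. The 5 receptor entries summed to 105 FPKM in air and 259 FPKM in ethylene, 2.47 times as much. ERS1 made up 51.7% of the increase, ETR2 24.5%, ERS2 21.3%, the ETR1 entry 2.08% and EIN4 0.337%.

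As a share of the pool in FPKM, ETR2 went from 7.52% in air to 17.6% in ethylene, and ERS2 from 14.7% to 18.6%. ERS1 held the largest share in both, 43.9% and 48.5%, or 55.9% and 53.9% without the shared ETR1 entry, which turns the direction of its share. The ETR1 entry went from 21.5% to 9.97% and EIN4 from 12.3% to 5.20%, although neither was lower in FPKM. By subfamily the move was smaller: subfamily II made up 34.6% in air and 41.5% in ethylene. Without the shared ETR1 entry these shares were 44.1% and 46.1%, so the subfamily shift rests largely on that entry. CTR1 stood at 0.243 FPKM for each FPKM of the 5 receptor entries in air and 0.295 in ethylene. RTE1 went from 0.119 to 0.188. Both ratios count the shared ETR1 entry among the receptors and were not formed without it, so how far they rest on it is not given. No test was made of these shares and ratios, which come from 1 pooled value per condition.

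**Figure D3:**
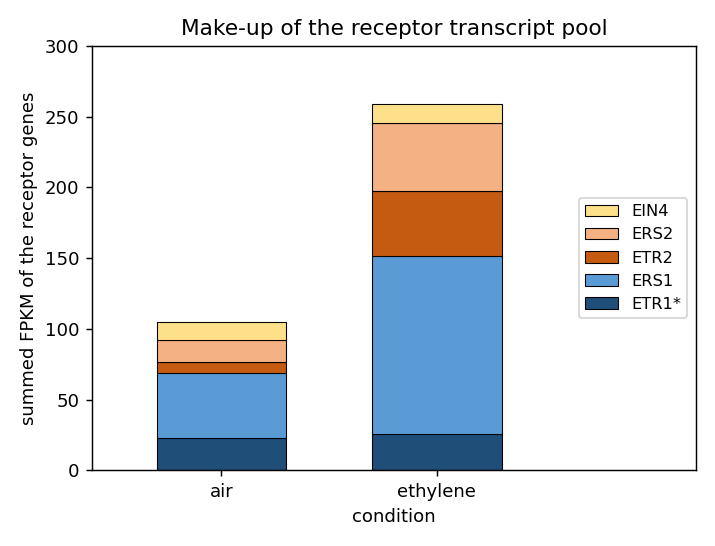
Summed FPKM of the 5 receptor entries in air and in ethylene, stacked by gene, with 1 pooled value per gene and condition; subfamily I is in blue and subfamily II in orange and yellow, and ETR1* is the entry shared with AT1G66345. The stack grows from 105 to 259 FPKM, mainly through ERS1, ETR2 and ERS2.

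Genes that work with the receptors or belong to the same families were read from 4 lists with 45 genes. These lists were chosen with earlier results of these data known, so their counts are described only. Of the 44 genes tested, 6 were called higher and 0 lower in the authors' deposited table, where 4.81% of all tested entries were higher and 6.46% lower.

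Receptor partners and the chain below the receptors numbered 18, of which 4 were called higher and 0 lower, beside 4.81% higher and 6.46% lower over all tested entries. Their median change was 0.02 on the log2(FPKM + 1) scale. ARGOS, which lowers ethylene sensitivity, was at 38.3 FPKM in air and 205 FPKM in ethylene. Its homolog ARL was at 72.0 and 311 FPKM. EBF2, an F-box protein that sends EIN3 to degradation, was at 95.5 and 209 FPKM, and EIN2 at 63.2 and 114 FPKM. EIN2 carries the signal on from the receptors. Other genes that restrain the pathway were looked up once the values were known, and none of 3 was called. EBF1, also an F-box gene for EIN3 turnover, was at 85.8 and 101 FPKM. ETP1 and ETP2, F-box genes for EIN2 turnover, had ethylene to air ratios of 0.755 and 0.655. The transcription factor genes EIN3 (97.4 and 97.6 FPKM) and EIL1 (48.5 and 47.6 FPKM), named after their values were seen, had nearly the same level in both conditions. The cytochrome b5 genes of the list, CB5-B, CB5-C, CB5-D and CB5-E, whose products bind RTE1, were not called, with changes of -0.42 to 0.23 on the log2(FPKM + 1) scale.

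Delivery of the copper cofactor gave 0 calls in either direction among 11 genes in the authors' Cuffdiff test, beside 11.3% of all tested entries. The median change was 0.03 on the log2(FPKM + 1) scale. At an unadjusted Cuffdiff p of 0.05 or less there were 3 of the 11 genes. Named after their values were seen, these were RAN1, lower in ethylene, and PAA2 and COPT3, both higher. The share of all tested entries at that p was not counted, so the 3 cannot be set beside a background. With the normal reading of the statistic, adjusted to a q of 0.05 or less, there were 0. The copper chaperone CCH was the most abundant, at 723 FPKM in air and 739 FPKM in ethylene. RAN1, the pump that supplies copper to the receptors, was named after its values were seen. It was at 108 FPKM in air and 82.2 FPKM in ethylene, with a q of 0.0534 in the authors' deposited table, and was not called. Its fold was 0.760, with an interval of 0.577 to 1.001.

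The other hybrid histidine kinases and the phosphotransfer proteins that act with them, 11 genes, gave 1 call among 10 tested. That call was higher, where 4.81% of all tested entries were higher and 6.46% lower. AHP1, a phosphotransfer protein of cytokinin signalling, was at 42.4 FPKM in air and 147 FPKM in ethylene, 3.47-fold higher, with a log2 ratio of 1.80 ± 0.39 (SE). The list median was -0.04 on the log2(FPKM + 1) scale. The cytokinin receptor genes HK2, HK3 and WOL, relatives of the ethylene receptors chosen after seeing their values, were not called and had changes of -0.34, 0.04 and 0.40.

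Of 5 Raf-like kinase genes grouped with CTR1, 1 was called higher and 0 lower. The shares over all tested entries were 4.81% higher and 6.46% lower. AT4G24480, annotated as a protein kinase, was at 22.9 FPKM in air and 66.0 FPKM in ethylene, 2.88-fold higher, with a log2 ratio of 1.53 ± 0.21 (SE), close to the 3.00-fold of CTR1. The other 4 had changes of -0.15 to 0.27 on the log2(FPKM + 1) scale, and the most abundant of them, AT1G73660, shares its entry with a neighbouring gene.

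**Figure D4:**
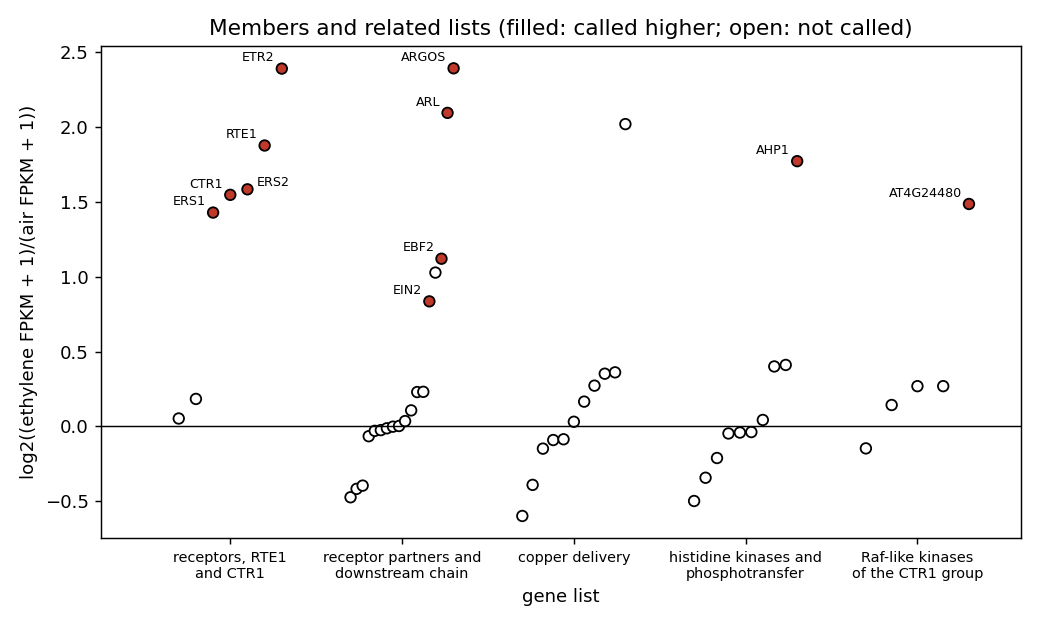
Change on the log2(FPKM + 1) scale of each tested gene (points) in the receptor, RTE1 and CTR1 set and in 4 related lists, from 1 pooled value per condition, filled where called higher and open where not called. Called genes number 5 of 7 in the first set and 6 of 44 in the lists together. Over all tested entries 4.81% were called higher. The set and the lists were chosen with earlier results of these data known.

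None of the 7 entries was at 0, and the lowest value was that of ETR2 in air, 7.90 FPKM, at place 12934 of the tested entries by level. With the pseudocount of 1 FPKM the log2 change of ETR2 was 2.39, against 2.53 without a pseudocount. The called genes stood at places 180 to 492 of 21076 when all tested entries were ordered from the largest rise down, and EIN4 at place 9260. By the same 2 pooled values, the entries most like ETR2 were those of GSTU4, a glutathione transferase (7.61 and 39.7 FPKM), MCCA, a subunit of methylcrotonyl-CoA carboxylase (9.85 and 43.9 FPKM), and the cyclin CYCA3;1 (8.66 and 37.0 FPKM). Most like CTR1 were AT2G15830 (27.2 and 79.5 FPKM), another entry of MCCA (27.1 and 81.2 FPKM) and the signalling peptide gene CLE5 (23.3 and 74.8 FPKM). Likeness was the distance in log2(FPKM + 1) over 2 values, from 0.107 to 0.320 for these entries. Of them GSTU4, AT2G15830 and CLE5 were called, and both MCCA entries and CYCA3;1 were not.

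**Figure D5:**
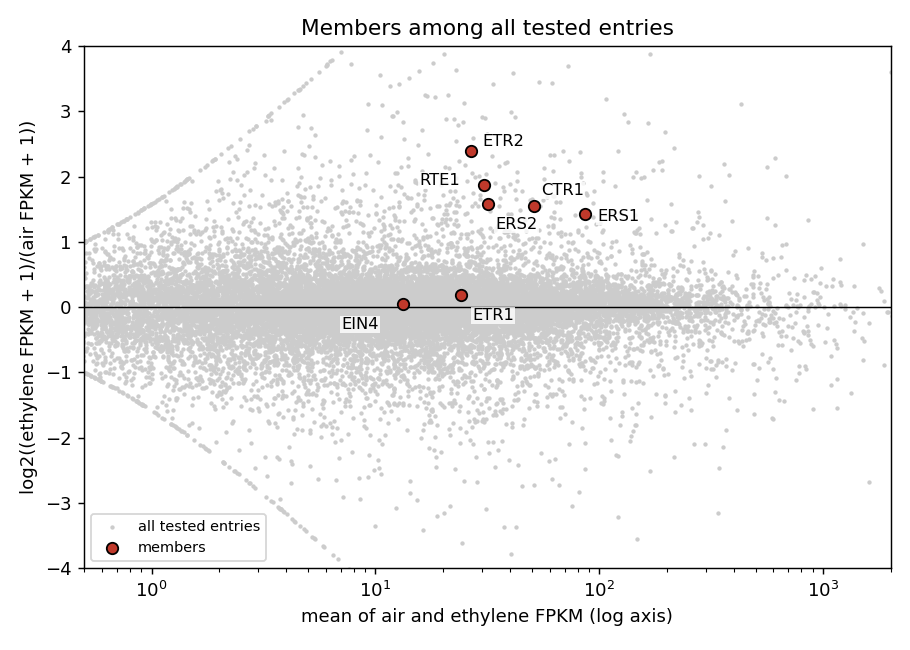
Change on the log2(FPKM + 1) scale against the mean FPKM of both conditions (log axis) for all tested entries (grey) and the 7 genes (red); 654 tested entries fall outside the axes. The 5 called genes lie between 1.43 and 2.39 and EIN4 and the entry that ETR1 shares with AT1G66345 near 0.

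Markers of the seedlings' state were read beside these genes. The etiolated seedling markers PORA, PORB and PHYA were high in air, at 397, 701 and 241 FPKM, and PIF3 was lower, at 51.6 FPKM. In ethylene PHYA was at 215 FPKM and was not called. The 3 markers of light exposure were low in air, between 7.49 and 19.2 FPKM. Of 4 etiolated seedling markers 3 were called higher, PORA, PORB and PIF3, and of the 3 light markers 1 was called lower, ELIP1, where 4.81% of all tested entries were higher and 6.46% lower. With the normal reading of the statistic PIF3 alone kept its call, leaving 1 higher and 0 lower. Of 5 root hair markers 4 were called higher, and their summed level was 64.3 FPKM in air and 115 FPKM in ethylene. With the normal reading 2 were higher, EXPA7 and EXPA18. None of the root hair markers was at 0. The part of cell type or light in the receptor results was not tested.

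The 250 bases before each RefSeq start were searched for letters of 2 factors of the ethylene pathway. ATGTA and ATGNANCT stand for EIN3-type sites and GCCGCC for sites of ethylene response factors, all on both strands. ATGTA was found before 3 of 7 genes (ETR1, ETR2 and ERS2), where 52.0% of 27443 protein-coding genes have it. ATGNANCT was found before 2 (ERS1 and CTR1), against 12.5%, and GCCGCC before 0, against 1.87%. RTE1, which rose, and EIN4, which was not called, had none of these letters. Sequences are shown for the 3 genes with ATGTA, with these letters or their reverse complement in capitals. They are ETR2, the receptor entry with the largest rise, ERS2, which rose, and ETR1, whose entry was not called.
ETR2 promoter (chr3:8254309-8254558, plus strand): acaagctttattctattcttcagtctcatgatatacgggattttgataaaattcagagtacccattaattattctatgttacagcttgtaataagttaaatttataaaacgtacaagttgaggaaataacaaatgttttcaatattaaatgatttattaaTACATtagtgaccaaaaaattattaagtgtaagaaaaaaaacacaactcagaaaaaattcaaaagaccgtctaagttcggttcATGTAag
ERS2 promoter (chr1:1157814-1158063, minus strand): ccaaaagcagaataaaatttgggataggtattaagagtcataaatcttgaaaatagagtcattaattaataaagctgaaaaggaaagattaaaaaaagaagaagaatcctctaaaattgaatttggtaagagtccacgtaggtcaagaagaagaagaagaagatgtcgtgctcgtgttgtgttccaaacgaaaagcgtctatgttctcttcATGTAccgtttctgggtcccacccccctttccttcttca
ETR1 promoter (chr1:24733912-24734161, plus strand): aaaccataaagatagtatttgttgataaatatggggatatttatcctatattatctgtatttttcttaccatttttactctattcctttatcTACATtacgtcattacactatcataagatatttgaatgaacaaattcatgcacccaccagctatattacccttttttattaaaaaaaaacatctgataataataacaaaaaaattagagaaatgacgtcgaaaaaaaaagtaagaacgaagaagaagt
ETR2 has 2 matches, starting 90 and 7 bases before the gene start, ERS2 has 1 at 39 and ETR1 has 1 at 158. A match to such short letters describes the sequence only.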

How the data were processed

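Transcripts were sequenced in 2 air and 2 ethylene libraries, prepared from seedling RNA taken with Trizol and an NEB library kit (per the labels' protocols). TopHat2 version 2.0.9, Cuffdiff version 2.2.1 and the build TAIR10 were used, per the submitters' processing notes, with parameters, annotation and strand setting not given in the sources used here. Per the file headers, the deposited FPKM values are pooled, 1 for each condition. The authors' Cuffdiff test gave the p-value and q-value columns, and recomputing Benjamini-Hochberg adjustment over 21076 tested entries gave the deposited q to within 5.25e-07. The deposited test statistic is a score on another scale: dividing the normal quantile of each p by it gave a median of 1.43. Depth is unknown, so no interval that needs it is given. Where nothing says that libraries came from separate cultures, p-values rest on the Cuffdiff model of the spread between libraries, which may be technical. The pooled values cannot show each gene's own spread. Standard errors were alike for some genes of unlike level, such as EIN2 (0.203) and CCH (0.204). There were 0 unused columns of per-sample values.

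An entry naming a locus alone was preferred, then that with the higher mean; each of the 7 loci had a single entry. Changes are log2((ethylene FPKM + 1)/(air FPKM + 1)), with a pseudocount of 1 FPKM, which understates low genes, and folds are plain FPKM ratios. Intervals are the log2 ratio ± 1.96 standard errors. The text names the 7 genes, every called gene of the 4 lists, the most abundant gene of a list with under 2 calls, 3 nearest entries each for ETR2 and CTR1, and markers; exceptions are stated. The members and lists were chosen with earlier results of these data known. RefSeq TAIR10.1 gave symbols for 32674 of 33414 loci, coordinates and sequences; all 33267 chromosomal spans of the table fit its chromosome lengths, and all 25766 entries naming a single protein-coding gene overlap that gene. Python 3.11.15, pandas 2.3.3, SciPy 1.17.1 and Biopython 1.88 were used, and the adjustment was tested on simulated data. Alternatives tried were other readings of the statistic, thresholds, pseudocounts, scalings and ways to form the receptor shares.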

Additional observations from a re-analysis of the deposited data

How the results depend on the processing

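The 5 higher calls stood with a q of 0.01, with adjustment over entries at 1 FPKM or more and with the statistic read against a normal curve. Under Bonferroni correction of the deposited p, 0 members were called, because the smallest p of 5e-05 times 21076 entries is 1.05; with the normal reference, a choice made after seeing the data, Bonferroni gave 5. The counts of the 4 lists did not change under the normal reference or the filter, whereas those of the markers did under the normal reference, from 3 to 1 higher (etiolated), 1 to 0 lower (light) and 4 to 2 higher (root hair). All 35 recomputed log2 changes, over 2 other pseudocounts and 3 scalings, kept their direction, and no scaling moved the ethylene values by more than 0.0086 on the log2 scale. Weighting FPKM by coding length gave ETR2 8.61% of the receptor pool in air and 20.4% in ethylene. Without the shared ETR1 entry, also chosen after seeing the data, subfamily II held 44.1% and 46.1%, ETR2 9.59% and 19.6%, and ERS1 55.9% and 53.9%, so the share of ERS1 was then lower in ethylene than in air, the reverse of its direction with that entry. No member had a further entry, so another entry could not be tried, and summing every entry of a locus changed nothing. No paired analysis was possible because the table pools the libraries, and for the same reason no library could be left out. What depth limits is unknown.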

Other observations

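The genes flanking the 7 loci give the local background of these values. Of 14 flanking protein-coding genes, 13 had an entry apart from that of the member, and 12 of these were tested. The entry of AT1G04300, beside ERS2, also names AT1G04290. Only those on either side of CTR1 were called, 2 higher and 0 lower in the authors' deposited table. Among all tested entries 4.81% were called higher and 6.46% lower, 11.3% in all. HSFA3, a heat shock transcription factor gene that ends 33 bases from CTR1, was at 2.07 FPKM in air and 5.46 FPKM in ethylene, 2.64-fold higher. HD2C, a plant-specific histone deacetylase gene 2009 bases from CTR1, was at 40.2 FPKM in air and 80.5 FPKM in ethylene, 2.00-fold higher. These neighbours were named after their values were seen. The other 10 tested neighbours had changes of -0.58 to 0.27 on the log2(FPKM + 1) scale.

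A pair of low genes had wide differences that were not called. COPT3, a copper transporter gene, was at 0.423 FPKM in air and 4.77 FPKM in ethylene, with a q of 0.199 in the authors' deposited table. EIL2, a relative of EIN3, was at 0.483 FPKM in air and 2.02 FPKM in ethylene, with a q of 0.0703 in the authors' deposited table. Both were named after their values were seen.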
